A study of Mus musculus with 6 samples.

Results

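The nuclear-encoded genes of the respiratory chain were examined in mouse embryonic fibroblasts (MEFs). Genes were taken by symbol: those starting with Nduf, Uqcr or Atp5, those starting with Cox and a number, the 4 Sdh genes, *Cycs* and *Cyc1*. Of 25043 genes in the deposited table, 107 were members, represented in the table by 166 transcripts. They comprised 77 subunits of the 5 complexes, 17 assembly factors, 8 isoforms known from particular tissues or conditions, 3 copies, the electron carrier *Cycs* and the supercomplex factor *Cox7a2l*. The annotation held another 20 genes with such symbols, 18 pseudogenes and the coding genes *Ndufb1* and *Ndufb4b*, that had no line in the table.

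RNA-Seq was performed on 3 libraries of wild-type (WT) MEFs and 3 of *Anp32e* null MEFs, which lack ANP32E, a histone chaperone that removes the histone variant H2A.Z from chromatin. All 6 were primary cultures of low passage number, plated the day before total RNA was isolated, and they received no other treatment. Libraries were numbered as replicates, without the embryo of origin. The values used are means over both genotypes, so each describes the cultures together, and differences between WT and *Anp32e* null cells were not analysed here.

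The respiratory chain passes electrons from NADH (complex I) and succinate (complex II) through coenzyme Q to complex III, through cytochrome c to complex IV and on to oxygen. The protons pumped on the way drive ATP synthase, complex V. Mitochondrial DNA encodes a few core proteins of these complexes, which were not among the genes examined. All other subunits, and the assembly factors that insert cofactors and join modules, are encoded in the nucleus, and their promoters are known for binding sites of NRF1, of the ETS factor GABP (NRF2) and of YY1.

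A value below is the mean over the 6 libraries of the count divided by the size factor of the library (mean normalized count). To set genes side by side, it was divided by the exon length of the transcript and is then given per kb. Only the means were used, so no value has a replicate error and no test was made. In bulk RNA, fewer cells that express a gene and less RNA per cell cannot be told apart. Size factors recovered from the steps between the lowest means ran from 0.909 to 1.13, and 1 read in 1 library added about 0.166 to a mean. At a mean of 1000 the counting error alone was 2.5% either way at 95% confidence. Of 12 fibroblast markers, 11 had a mean of at least 10, against 56.9% of all genes. *Vim* had 330695 and *Col1a1* 26142, while *Pdgfra* had 628, *Dcn* 144 and *Lum*, the exception, 1.33. *Anp32e* itself (chr3:95929245-95947387, GRCm38) had a pooled mean of 2190, which cannot check the genotypes.

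The promoter windows of 6 members are shown first, because they pair genes used in MEFs with isoforms that had far fewer reads and hold each motif named below except that of YY1. The pairs were chosen after their motifs were seen, and those left out are described with the motif shares. Each window runs from 250 bases before to 50 bases after a RefSeq start on GRCm38, and capitals mark motif matches. The first pair is *Cox6b1* (chr7:30626065-30626364, minus strand) and its testis isoform *Cox6b2* (chr7:4753045-4753344, minus strand). The second is *Cox8a* (chr19:7217567-7217866, minus strand) and its muscle isoform *Cox8b* (chr7:140900397-140900696, minus strand). *Cox6a1* (chr5:115348909-115349208, minus strand) holds the NRF1 motif, and *Atp5b* (chr10:128083057-128083356, plus strand) is the member with the highest level.
Cox6b1: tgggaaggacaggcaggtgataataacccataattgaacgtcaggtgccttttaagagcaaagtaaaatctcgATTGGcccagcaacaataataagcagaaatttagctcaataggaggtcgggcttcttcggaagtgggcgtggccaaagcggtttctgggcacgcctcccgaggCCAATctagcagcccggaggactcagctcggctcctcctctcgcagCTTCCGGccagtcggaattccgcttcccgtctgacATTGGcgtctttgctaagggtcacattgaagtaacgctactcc
Cox6b2: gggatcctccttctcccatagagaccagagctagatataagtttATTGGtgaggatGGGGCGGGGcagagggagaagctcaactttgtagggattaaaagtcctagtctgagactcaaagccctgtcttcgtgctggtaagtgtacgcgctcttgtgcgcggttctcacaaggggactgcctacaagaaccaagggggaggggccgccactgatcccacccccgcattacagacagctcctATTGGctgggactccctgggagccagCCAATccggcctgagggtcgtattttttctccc
Cox8a: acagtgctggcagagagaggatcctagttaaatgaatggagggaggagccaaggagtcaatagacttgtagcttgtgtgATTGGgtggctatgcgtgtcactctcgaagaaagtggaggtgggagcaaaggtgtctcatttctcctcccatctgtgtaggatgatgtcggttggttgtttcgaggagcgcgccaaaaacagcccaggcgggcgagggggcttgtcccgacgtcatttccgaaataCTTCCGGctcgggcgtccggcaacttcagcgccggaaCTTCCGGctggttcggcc
Cox8b: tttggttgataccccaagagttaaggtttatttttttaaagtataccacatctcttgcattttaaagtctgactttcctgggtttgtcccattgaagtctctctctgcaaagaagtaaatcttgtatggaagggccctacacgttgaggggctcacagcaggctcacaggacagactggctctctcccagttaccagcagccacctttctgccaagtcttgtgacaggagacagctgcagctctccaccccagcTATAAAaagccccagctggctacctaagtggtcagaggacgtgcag
Cox6a1: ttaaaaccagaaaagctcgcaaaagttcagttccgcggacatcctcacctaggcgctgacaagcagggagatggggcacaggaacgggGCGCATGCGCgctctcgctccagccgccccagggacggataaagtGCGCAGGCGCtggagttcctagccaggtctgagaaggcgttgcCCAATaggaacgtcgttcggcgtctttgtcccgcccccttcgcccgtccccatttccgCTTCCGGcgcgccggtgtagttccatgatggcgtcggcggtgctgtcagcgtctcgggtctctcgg
Atp5b: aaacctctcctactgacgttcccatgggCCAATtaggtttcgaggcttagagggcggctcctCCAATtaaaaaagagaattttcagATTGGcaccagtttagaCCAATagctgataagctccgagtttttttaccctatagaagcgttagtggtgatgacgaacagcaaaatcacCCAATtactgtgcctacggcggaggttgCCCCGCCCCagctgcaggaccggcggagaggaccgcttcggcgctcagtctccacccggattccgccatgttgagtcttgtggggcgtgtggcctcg

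Motifs were searched on both strands, namely that of NRF1, the ETS core CCGGAAG that GABP recognises, AAGATGGCG (YY1), GGGGCGGGG (SP1) and CCAAT (bound by NFY). The letters taken for a TATA box were TATAAA. *Cox6a1* had NRF1 matches 162 and 117 bases before its start, an ETS match 16 bases before it and an NFY match 74 bases before it. The *Cox8a* window held ETS matches 5 bases before and 33 bases after the start and an NFY match 171 bases before it. The *Cox8b* window held only a TATA match, 5 bases after its start. *Cox6b1* had an ETS match 28 bases before its start, where *Cox6b2* had none of the NRF1, ETS or YY1 letters. Both windows held NFY matches, in *Cox6b1* 177 and 74 bases before and 8 bases after the start. In *Cox6b2* they lay 206 and 9 bases before and 18 bases after it, beside an SP1 match 194 bases before it. *Atp5b* held 5 NFY matches and 1 SP1 match. No matches of different motifs overlapped in these windows.

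RNA of the respiratory chain was abundant in MEFs. The 107 members were 0.427% of the genes and held 1.42% of the summed gene means, which came to 51227500 normalized counts. A mean of at least 1000 was found for 75 of 77 subunits (97.4%), 9 of 17 assembly factors (52.9%) and 28.8% of all genes of the table. Of all members, 100 of 107 had a mean of at least 10, against 56.9% of all genes. The exceptions among the subunits at 1000 were *Atp5l* and *Ndufs5*, described below.

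**Figure D1:**
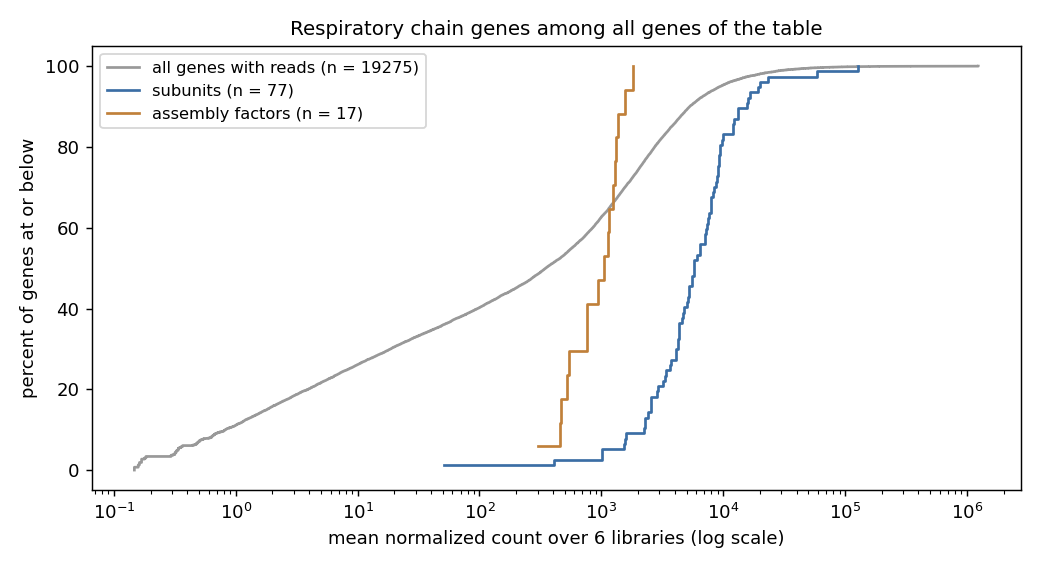
Percent of genes (vertical axis) at or below a given mean normalized count (horizontal axis, log scale), for all genes with reads, the 77 subunits and the 17 assembly factors. Over most of its course the curve of the subunits lies to the right of the others, with 97.4% of subunits at a mean of 1000 or more, and that of the assembly factors rises steeply around 1000.

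A few genes made up much of this RNA. The 10 members with the highest means held 44.7% of the summed member means, and *Atp5b* alone held 17.7%. By complex, complex V subunits held 43.4%, complex I subunits 22.2%, complex IV subunits 16.3%, complex III subunits 9.45% and complex II subunits 4.57%. These shares count reads and so grow with transcript length and with the number of genes of a complex. Per kb, the median subunit was highest in complex IV (13366 over 11 genes) and complex V (11173 over 17 genes). It was 6477 in complex III (9 genes), 5140 in complex I (36 genes) and 4475 in complex II (4 genes). The interquartile range ran from 10105 to 23551 in complex IV and from 6967 to 19964 in complex V, which overlap, and without division by length complex V (1.61 times the median of all subunits) stood above complex IV (1.54 times). Complex III also overlapped complex IV. Complexes III (3516 to 13219), I (2832 to 7294) and II (3637 to 5584) overlapped as well, so their order is not separated by the spread of their genes. The place of complex III against the median of all subunits (7102) depended on the length used, and complex II passed it when means were not divided by length (1.33 times).

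**Figure D2:**
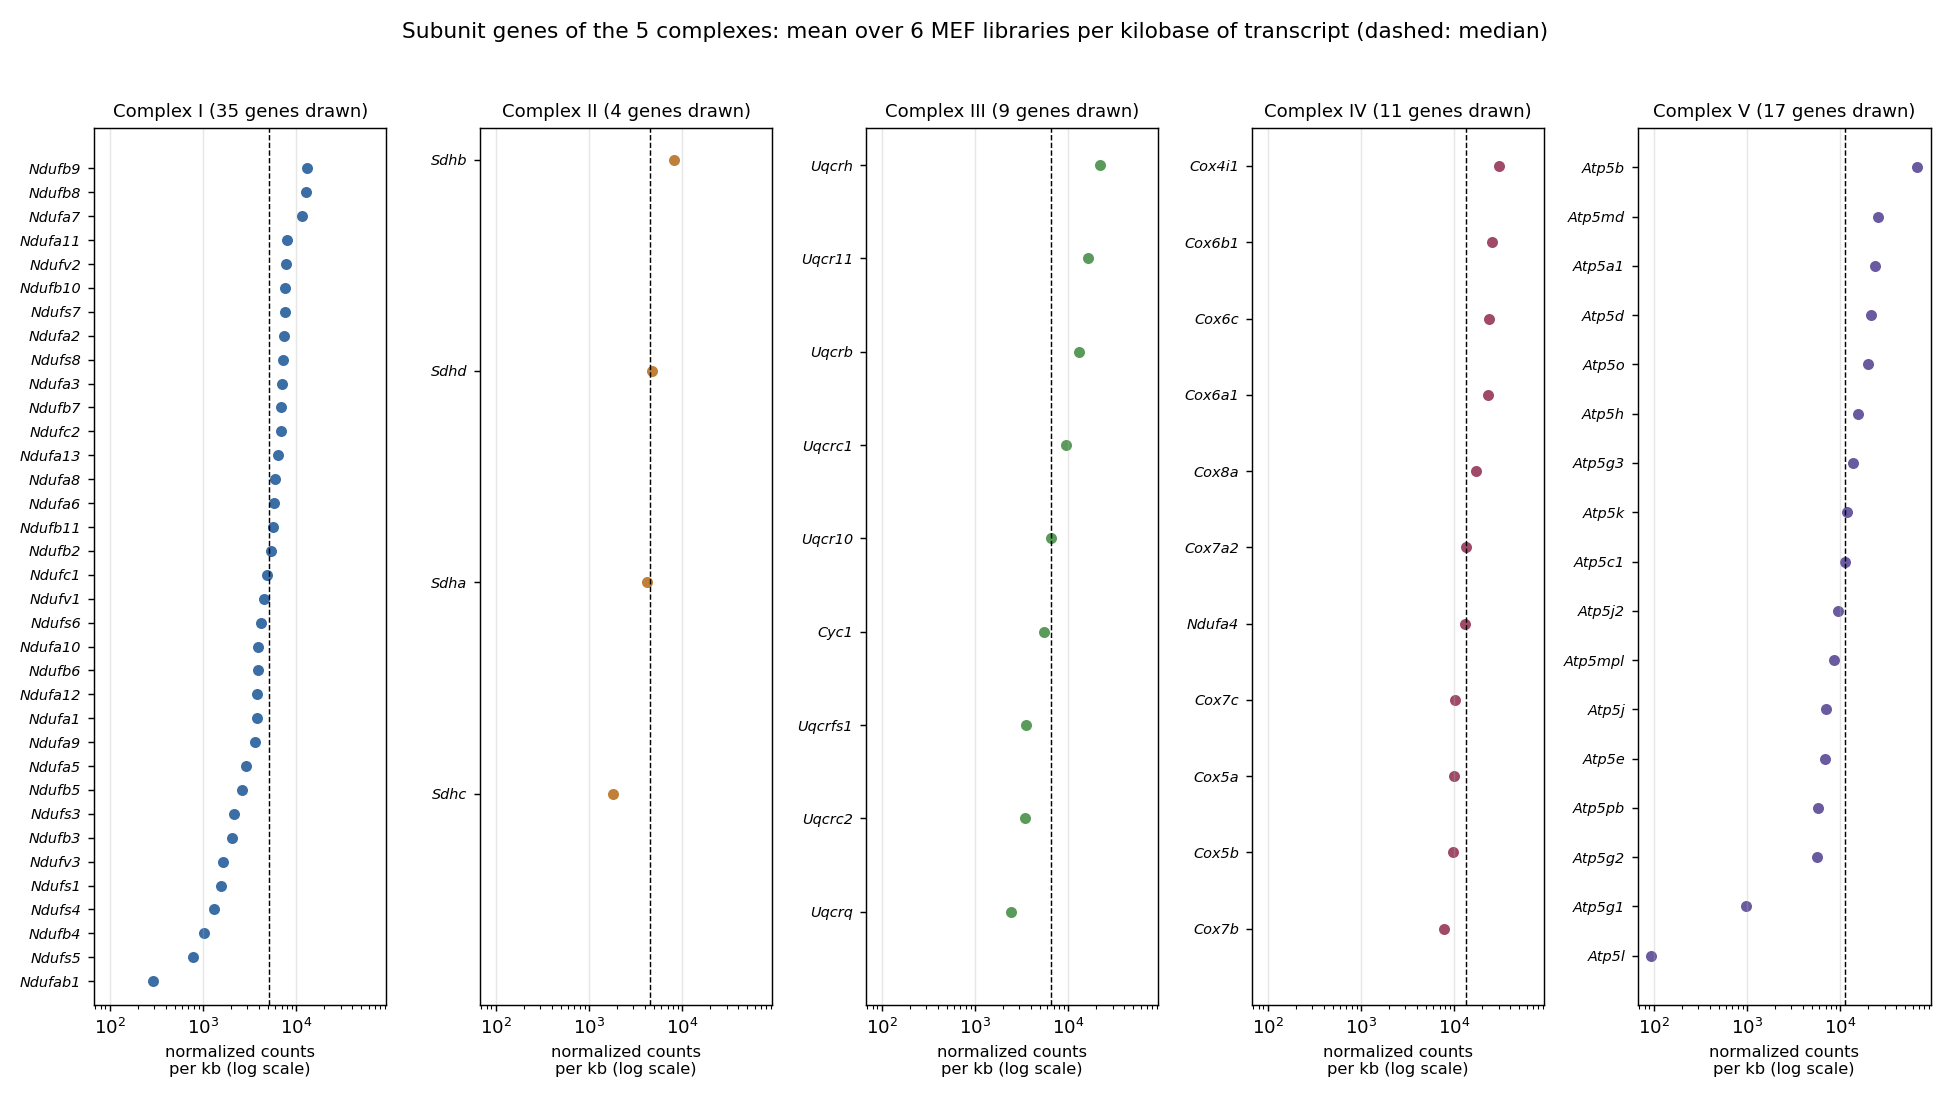
Mean normalized count per kb (horizontal axis, log scale) of 76 of the 77 subunit genes, 1 point a gene, in a panel for each complex, with the median of all subunits of the complex as a dashed line. Complex IV genes lie within 3.96 times of each other, and complexes I and V have tails of low genes that end at *Ndufab1* and *Atp5l*.

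In complex I, the NADH dehydrogenase, the highest levels per kb were those of the accessory subunits *Ndufb9* (12930 per kb, chr15:58933801-58939516) and *Ndufb8* (12894 per kb, chr19:44548571-44555442). The 7 core subunits, which carry the flavin and iron-sulphur centres and the quinone site, had a median of 7244 per kb, and the 29 accessory subunits, which surround them, one of 4926 per kb. Within the core, the 3 genes of the NADH-oxidizing module spanned 5.07 times, from *Ndufs1* (1547 per kb) to *Ndufv2* (7838 per kb). The lowest subunits were *Ndufab1* (290 per kb), the mitochondrial acyl carrier protein, and *Ndufs5* (777 per kb). The linked length of *Ndufab1* was 3479 bases against a median of 812 in complex I, and its undivided mean of 1008 stood at percentile 62.8 of genes with reads. *Ndufs5* had a mean of 408, beside 431 for its listed pseudogene *Ndufs5-ps*, and 27.0% of the 100-base windows of *Ndufs5* were also found in another gene.

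Complex II, succinate dehydrogenase, had 4 members and no low one. *Sdhb* (chr4:140961271-140979198), the iron-sulphur subunit, had 8228 per kb. *Sdhd* (chr9:50596340-50603849) and *Sdhc* (chr1:171129157-171150640), the membrane anchors, had 4702 and 1803 per kb, and *Sdha* (chr13:74322255-74350240), the flavoprotein, had 4248 per kb. Before division by length the order was another, with *Sdha* highest at a mean of 12319 and *Sdhb* at 9396, while the counting intervals of *Sdhd* (5728 to 5850) and *Sdhc* (5656 to 5777) overlapped.

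In complex III, cytochrome bc1, the small subunits *Uqcrh*, the hinge protein (21995 per kb), and *Uqcr11* (16393 per kb) were highest. *Uqcrq* (2445 per kb) and the core protein *Uqcrc2* (3414 per kb) were lowest. Without division by length, *Uqcr10* was lowest (mean 3303), below *Uqcrq* (3719), and *Uqcrc2* (6473) stood above *Uqcrfs1* (4793), so the lowest places rest on the length. *Cyc1*, cytochrome c1, which hands electrons to cytochrome c, had 5499 per kb. *Cycs*, the soluble cytochrome c, had a mean of 4659 and 1492 per kb over a linked length of 3123 bases, 24.7% of whose windows recurred in other genes.

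Complex IV, cytochrome c oxidase, had the narrowest range per kb (highest over lowest 3.96 times, against 4.56 times in complex II). None of its 11 subunits fell below 7698 per kb. Without division by length, its means ran from 5549 (*Cox7c*) to 23347 (*Cox4i1*), a wider span than in complex II (5716 to 12319). *Cox4i1* (30519 per kb, chr8:120668225-120674209) and *Cox6b1* (25737 per kb, chr7:30616971-30626114) were highest, and *Cox5b* (9616 per kb) and *Cox7b* (7698 per kb) were lowest. *Ndufa4*, once counted with complex I, is a subunit of complex IV and was counted there, at 12999 per kb.

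Complex V, ATP synthase, held the highest and the lowest subunit of all. *Atp5b* (chr10:128083307-128090388), the catalytic beta subunit, had a mean of 128669 and 67155 per kb, rank 23 of 19275 genes with reads by mean. Its partner in the catalytic head, the alpha subunit *Atp5a1*, had a mean of 58591 (rank 79) and 23711 per kb, so that *Atp5b* was 2.83 times higher per kb. The 5 genes of the F1 part had a median of 21467 per kb, and the 12 genes of the Fo part and stalk one of 9070 per kb. *Atp5md*, a small Fo subunit, reached 25429 per kb, above 4 of the 5 F1 genes. *Atp5l*, subunit g, had a mean of 51.1 and 94.0 per kb, at percentile 36.0 of genes with reads. Of its 100-base windows, 61.3% were also found in 5 annotated pseudogenes, and the part of this in its low mean was not tested.

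The c subunit of the Fo ring is encoded by *Atp5g1*, *Atp5g2* and *Atp5g3*, which differ in the import signal and give the same mature protein. Their means were 4632, 4125 and 10021. Per kb, *Atp5g3* (13860) was 2.46 times higher than *Atp5g2* (5644), with a counting interval of 2.42 to 2.49. It was 14.1 times higher than *Atp5g1* (982) with the linked length of 4715 bases, and 1.81 times higher with the shortest linked length of *Atp5g1*, 596 bases, so this value rests on the length. *Atp5g2* had 86.4% of its windows in 2 pseudogenes.

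Assembly factors were expressed at a lower level than subunits. Their median was 532 per kb over 17 genes, and that of the 77 subunits was 13.4 times higher. The difference was 9.76 times within complex I (8 factors, median 527 per kb) and 15.3 times within complex IV (9 factors, median 875 per kb). Without division by length it was 5.40 times over all complexes, since subunit transcripts were short, with a median of 763 bases against 1224 for assembly factors. The highest factors were *Cox17* (4098 per kb), the copper chaperone of complex IV, *Ndufaf2* (2320 per kb), which acts late in complex I assembly, and *Cox14* (1902 per kb). The lowest were *Cox11* (245 per kb), which inserts copper, *Cox15* (276 per kb), which makes heme a, and *Ndufaf4* (292 per kb). *Cox11* was also lowest by undivided mean (300). *Cox15* and *Ndufaf4* had linked lengths of 4798 and 3632 bases. Their undivided means were 1323 and 1061, against a median of 1061 for the 17 factors, so their low place rests on the length. In complex IV the ranges did not meet, with *Cox17* below *Cox7b*, while in complex I *Ndufaf2* lay above 8 of 36 subunits. No comparison between samples lies behind this, and the genes are not replicates.

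**Figure D3:**
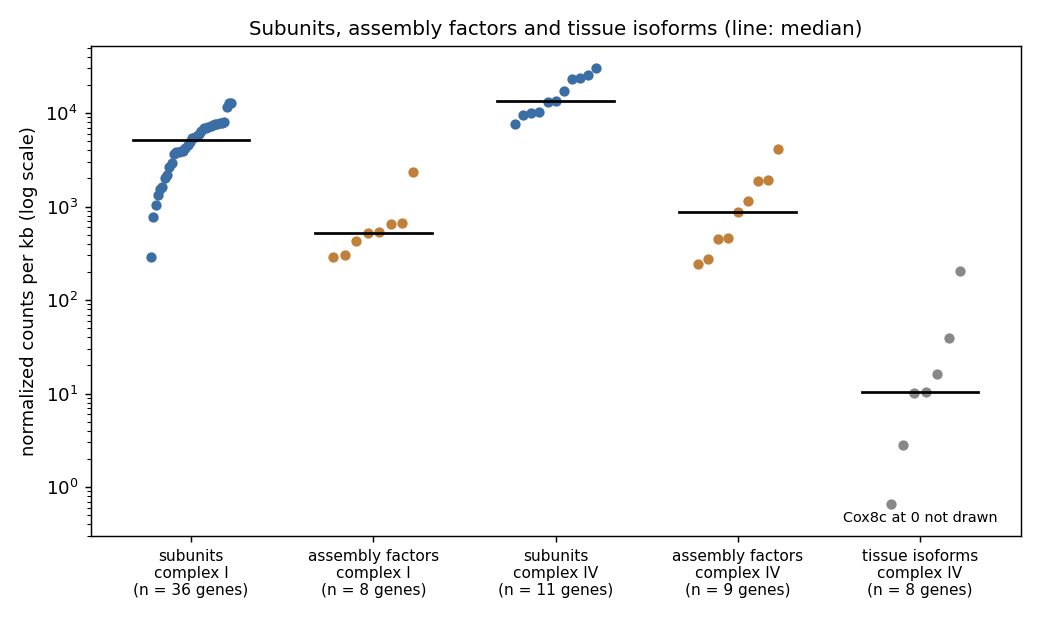
Mean normalized count per kb (vertical axis, log scale) of subunits, assembly factors and tissue isoforms of complexes I and IV, 1 point a gene and a line at the median. The medians of the assembly factors, 527 and 875 per kb, lie below those of the subunits of their complex, 5140 and 13366, and the 8 tissue isoforms have a median of 10.4 per kb.

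Among 38 assembly factors whose symbols lie outside the naming rule, 37 were in the table, all with a mean of at least 10, and their median was 644 per kb. *Uqcc2*, for complex III, was the highest of them at 13433 per kb, and *Sdhaf3*, for complex II, the lowest at 21 per kb. The 13 citrate cycle genes had a median of 2840 per kb, led by *Mdh2* (12641), and the 13 genes of coenzyme Q synthesis one of 661 per kb, with *Coq8a* lowest (26.3). Of the 9 carriers and channels outside the complexes, the adenine nucleotide carrier *Slc25a5* (19380 per kb) was highest, and *Ucp1*, the brown fat uncoupling protein, had a mean of 0.356. Of 13 regulators, 12 had a mean of at least 10. *Nrf1* (3402), *Gabpa* (4203) and *Yy1* (4459) were among them, and *Ppargc1a*, the coactivator known from muscle and brown fat, had a mean of 8.81.

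Isoforms known from particular tissues had far fewer reads than their partners, and *Cox7b2* and *Cox8c* had no more than the floor of 3 reads. Of the 8, only *Cox6b2* (114), *Cox7a1* (15.5) and *Ndufa4l2* (15.1) had a mean of at least 10. *Cox4i1* was 2987 times higher per kb than *Cox4i2*, known from lung and low oxygen, which had a mean of 7.43 (counting interval of the ratio 2214 to 4062). For the heart and muscle isoforms, *Cox6a1* was 2219 times higher than *Cox6a2* (1642 to 3057), *Cox7a2* 339 times higher than *Cox7a1* (277 to 421, and 568 times without division by length) and *Cox8a* 6161 times higher than *Cox8b* (2842 to 16859). The mean of *Cox8b* was 1.00, about 6 reads in all libraries together. For the isoforms known from testis, *Cox6b1* was 125 times higher than *Cox6b2* (116 to 135), and *Cox7b* was 11711 times higher than *Cox7b2* (3470 to 103520), which had about 2 reads. *Cox8c* had no reads, and *Cox8a* was at least 15741-fold higher when *Cox8c* is set to a floor of 3 reads over all libraries. *Cyct*, the testis cytochrome c, also had none, and *Cycs* was at least 1957-fold higher against the same floor. *Ndufa4* was 804 times higher than its hypoxia-induced paralog *Ndufa4l2* (653 to 996, and 525 times without division by length), whose exons overlap those of *Shmt2* on the other strand. These intervals cover counting error only.

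**Figure D4:**
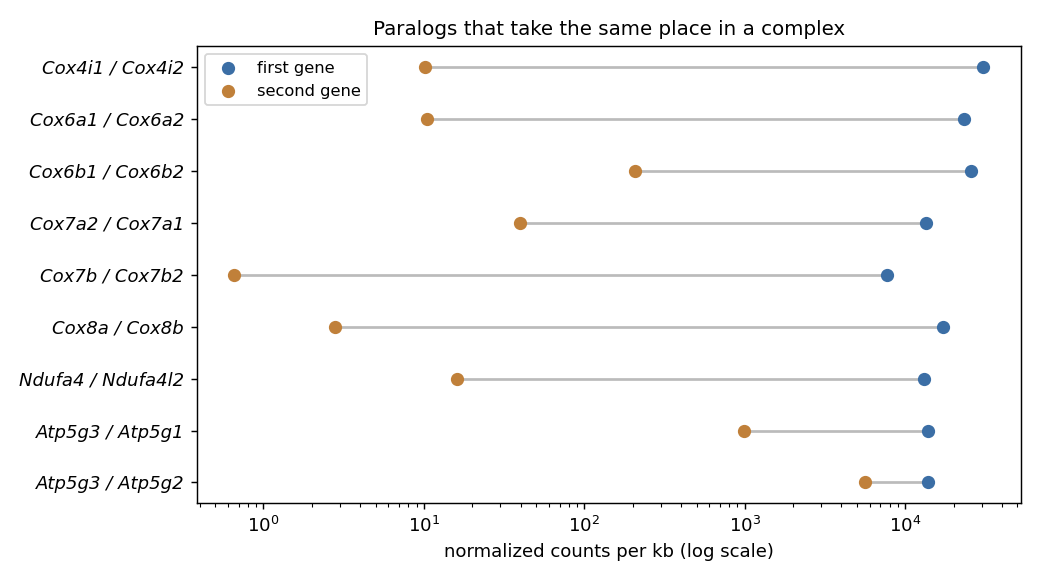
Mean normalized count per kb (horizontal axis, log scale) of paralogs that take the same place in a complex, 1 line a pair, with the first gene in blue and the second in orange. The 3 Atp5g genes are at most 14.1 times apart, and the other pairs are 125 times or more apart. *Cox8c* and *Cyct*, at 0, are not drawn.

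Markers of the tissues in which these isoforms are known were mostly low as well. Of 9 skeletal muscle markers, 3 had a mean of at least 10, with *Acta1* at 4711 and *Myod1* and *Myf5* at 0. Of 9 heart muscle markers, 3 had such a mean, with *Nppb* at 615 and *Myh6* at 0.147. Of 8 male germ cell markers, 2 had such a mean, *Ddx4* at 99.5 and *Sycp3* at 78.2, and *Stra8*, *Tnp1* and *Acr* were at 0. In brown fat the count was 1 of 5, in epithelium 3 of 5 (*Krt18* at 1106), in endothelium 2 of 4 (*Kdr* at 2958) and in macrophages 2 of 5. The part of other cells in the isoform values was not tested. Of the copies, *Ndufa11b* (mean 2.08, beside 4313 for *Ndufa11*) and *Ndufb4c* (0.321, about 2 reads, beside 1007 for *Ndufb4*) were below 10.

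Members lay on 19 chromosomes, 104 on autosomes and 3 on chromosome X, namely *Ndufa1* (mean 1600), *Ndufb11* (5073) and *Cox7b* (7706). Few members were neighbours. The core complex I genes *Ndufs8* and *Ndufv1* lay within 100 kb of each other on chromosome 19, with 94725 bases between them. Back-to-back starts were more frequent than among coding genes at large, with 24 of 104 members (23.1%) having a coding gene that starts within 1 kb in the other direction, against 6.79% of 21951 coding genes. These coding genes were not limited to genes with reads in MEFs, and the part of this was not tested. *Ndufa7* and *Rps28* start 10 bases apart, *Ndufb9* and *Tatdn1* 18, *Sdha* and *Ccdc127* 29, and *Sdhd* and *Timm8b*, an import chaperone of mitochondria, 98. Exons of 39 members overlapped those of another gene, for 34 of them a gene on the other strand. The share of all genes with such an overlap was not determined. The methods name default settings for the counting and no strand option. By default featureCounts does not use strand, and a read within such an overlap then matches both partners. Whether such reads were counted for both genes or left out is not stated. Of 33 members with more than 1 listed transcript, 29 had means within 1.1 times of each other. Reads in exons shared by such transcripts were therefore not dropped. The part of reads shared with other genes in the means was not tested.

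The promoters of the members held some of the motifs more often than promoters in general. RefSeq windows were found for 84 members, and 80 of them, with 86 windows, were neither tissue isoforms nor copies. An NRF1 match was present in 23.3% of these windows and in 4.60% of all 32851 windows. ETS matches were present in 29.1% and 8.86%, and YY1 matches in 10.5% and 1.40%. At least 1 of the 3 was found in 46 of the 86 windows, 53.5% against 13.6%. The shares of SP1 (14.0% and 11.4%), NFY (41.9% and 37.4%) and TATA (9.30% and 13.6%) were closer to those of all windows. Median GC content was 59.0% and 52.7%, and its part in these shares was not tested. The windows of all genes were not limited to coding genes or to genes with reads in MEFs, and the part of this was not tested either. NRF1 matches were found in 26.1% of 69 subunit windows and 13.3% of 15 windows of assembly factors, and ETS matches in 24.6% and 53.3%. The 4 windows of tissue isoforms held no NRF1, ETS or YY1 match, as in the *Cox6b2* and *Cox8b* windows printed above. Of their partners, *Cox6b1* and *Cox8a* held an ETS match, whereas the windows of *Cox7a2* and *Cox7b* held none of the 3 either, nor did that of *Ndufa4*, so that in 2 of the 4 pairs the partners did not differ in this. A match describes letters in a window and is no measure of binding.

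**Figure D5:**
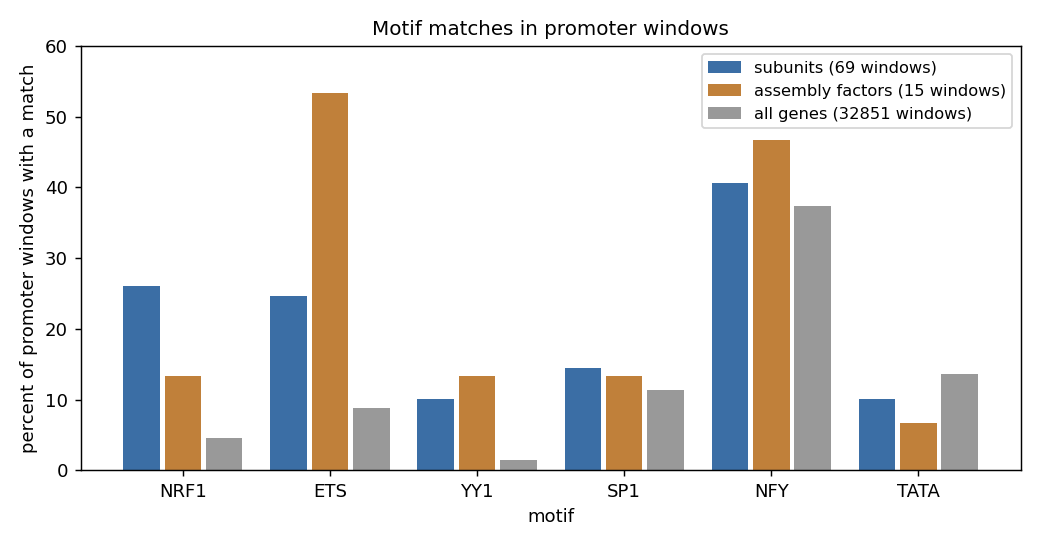
Percent of 300-base promoter windows (vertical axis) with at least 1 match of each motif (horizontal axis), for subunits, assembly factors and all genes in the RefSeq table. NRF1, ETS and YY1 bars are higher for both groups of members than for all genes, and ETS is highest for assembly factors (53.3%, 8 of 15 windows).

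Transcripts of 1 gene carried nearly the same value. Of 33 members with more than 1 transcript in the table, 29 had means within 1.1 times of each other. The others were *Ndufa7* (2.15 times), *Ndufv3* (1.49 times), *Cox16* (1.35 times) and *Atp5j* (1.11 times). Of 104 members with a sequence, 20 shared at least 1 window of 100 bases with another gene, and 2, *Atp5g2* and *Atp5l*, shared over 50% of them. The share of all genes with such a window was not determined. Over the 77 subunits, the share of such windows had a Spearman rho of -0.07 with the level per kb, across genes that are not independent replicates. The 66 subunits with at most 10% of shared windows had a median of 7112 per kb, close to the 7102 of all subunits.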

How the data were processed

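RNA-Seq was performed on 3 WT and 3 Anp32e null MEF libraries (stranded total RNA, paired-end). The authors used RNA-STAR for alignment (mm10), featureCounts of Subread for counting, and DESeq2. The methods name default settings and give no single counting option. The signal column of the deposited table is a mean over all 6 libraries, taken by the authors after dividing each count by the size factor of its library. The other columns hold the authors' comparison of the genotypes (log2 fold change, its standard error, statistic and p-values) and were not used, and no values per library were used. Total counts per library are unknown.

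RefSeq transcripts were matched to genes on GRCm38.p6, which named 42203 of 42361. For each gene the transcript of highest mean was kept. Exon lengths came from GENCODE M21 through its RefSeq links, for 104 of 107 members, 3 of them by another transcript of the gene. A linked length need not be that of the RefSeq transcript. Counting intervals (95%) treat a mean as reads of 0.166 each, and the floor was 3 reads. They are exact Poisson for single means and exact binomial, on rounded reads, for paralog ratios. The counting error at a mean of 1000 is a normal approximation. The recovery of size factors was tested on simulated data, and the choice of transcript and level per kb on a small made-up set. Other steps were not tested in this way. Scripts ran in Python 3.11.15 with numpy 2.4.6, pandas 2.3.3, scipy 1.17.1 and matplotlib 3.10.9.

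Members and lists were chosen with earlier results of these data known. Genes named are the 2 highest and 2 lowest subunits of each complex, the 3 highest and 3 lowest assembly factors, paralog pairs, members below 10 or on X, all Sdh genes, Cycs, Cyc1 and Anp32e. Of 1 member, the values are not reported here. Others, the roles of members, the motifs and the limits for windows and neighbours were chosen after values were seen. Alternatives concerned the length, the transcript, the summary, low means, X and Y genes and the background.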

Additional observations from a re-analysis of the deposited data

How the results depend on the processing

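The level of subunits over assembly factors kept its direction under every alternative run. Against a main value of 13.4 over all complexes, 9.76 in complex I and 15.3 in complex IV, it was 16.5, 12.3 and 18.8 with 200 bases taken off each length, 5.40, 5.61 and 7.01 with no length, and 8.89, 7.24 and 18.1 by geometric means. With the median over listed transcripts it was 12.7 over all and 10.3 in complex I, and in complex I it was 10.2 with the highest value per kb, 10.2 with the shortest length (chosen after seeing the data) and 10.7 without members that share over 10% of their windows (also added).

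The median of complex III over that of all subunits, 0.912, passed 1 in the other direction with 200 bases off (1.07), no length (1.23), the highest value per kb (1.01), the median over transcripts (1.00) and the shortest length (1.01), and was 0.842 without members with shared windows. Complex II, 0.63, was 1.33 with no length, 0.51 with 200 bases off, 0.594 with the highest value per kb and 0.592 with the shortest length. Complex I, 0.724, was 0.751 with the highest value per kb, 0.802 with the median over transcripts, 0.754 with Ndufa4 counted in it and 0.795 without shared windows. Complex IV, 1.88, was 1.54 with no length, 1.77 with the highest value per kb, 1.77 with the shortest length, 2.15 without X genes and 2.15 without Ndufa4. Complex V, 1.57, was 1.61 with no length, 1.92 with 200 bases off and 1.67 with the median over transcripts. These changes follow from the lengths and genes used. The share of all genes at a mean of 1000 or more, 28.8%, was 34.3% among genes with a coding transcript. Over all alternatives the paralog ratios ran from 2931 to 3143 for Cox4i1, 1863 to 2411 for Cox6a1, 95.4 to 139 for Cox6b1, 239 to 568 for Cox7a2, 9234 to 21628 for Cox7b, 4303 to 9413 for Cox8a, 525 to 940 for Ndufa4, 2.43 to 2.49 for Atp5g3 over Atp5g2 and 1.81 to 18.7 for Atp5g3 over Atp5g1.

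No paired analysis was possible because the values are means over all 6 libraries, which also left no replicate to leave out. Low counts limit the precision of the 7 members with a mean below 10.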
